A study of Sus scrofa with 12 samples.

Results

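Chromatin accessibility at the gene of the glucocorticoid receptor (NR3C1) and at 9 genes known as its targets was compared between the longissimus dorsi muscle of Luchuan and Duroc pigs. The targets were TSC22D3, DUSP1, CEBPB, CEBPD, KLF9, ZBTB16, DDIT4, SGK1 and ERRFI1. A region was counted for a gene when its midpoint lay in the gene body or within 10 kb of it, with gene bounds from the Sscrofa11.1 annotation. By this rule 216 of 140081 accessible regions belonged to the 10 genes, which are 348 of the 217213 intervals listed.

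The muscle came from 3 Luchuan and 3 Duroc boars aged 180 days. The breeds were kept alike with free access to feed, and the animals were fasted overnight before death. The labels name no treatment, and breed is the factor that separates the groups. Luchuan is a Chinese breed and Duroc a breed widely used for lean meat production. ATAC-seq, in which a transposase cuts open chromatin, was the assay, and the RNA-seq samples of the series were not analysed here. Each region has 1 read count for Luchuan and 1 for Duroc, with no count for a single boar. The spread between boars is therefore unknown, no test between the breeds was possible, and each interval given below is a 95% interval for counting error alone (exact Clopper-Pearson). In whole muscle, a change in the share of a cell type and a change in the chromatin of each cell cannot be told apart.

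The glucocorticoid receptor is a transcription factor that waits in the cytoplasm with chaperones, binds cortisol, enters the nucleus and attaches to response elements in open chromatin. In skeletal muscle it is known for restraining growth and shifting fuel use during fasting and stress. Its targets include transcription factors (CEBPB, CEBPD, KLF9, ZBTB16), genes that dampen inflammatory and kinase signals (TSC22D3, DUSP1), and regulators of growth signalling (DDIT4, SGK1, ERRFI1).

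All regions together held 13746432 Luchuan and 20760292 Duroc reads. Ratios are log2(Luchuan/Duroc) after adding 1 read to each count and setting the median of the regions called in both breeds to 0, which multiplies Luchuan counts by 1.48. The regions of the 10 genes were deep, with a median of 91 Luchuan and 132.5 Duroc reads against 38 and 61 over all regions. The 7 genes listed for muscle fibers all had regions, 251 in all, with a median of 215 Duroc reads. TTN alone held 188 of these regions, so it largely sets that median. In the regions of adipocyte genes that median was 29, of endothelial genes 17.5, of fibroblast genes 40.5, of macrophage and other blood cell genes 41.5 and of satellite cell genes 170.5. It was 42 for the 5 regions of 4 genes not expected in muscle. FABP4 of adipocytes and LUM of fibroblasts had no region. The summed ratio was -0.06 for the muscle fiber list and between -0.14 and 0.09 for the other lists, but single markers differed more. In the muscle fiber list 5 of 7 genes were below 0 (median -0.09), with CKM at -0.47, MYLPF at -0.37 and TNNT3 at -0.33, while TTN, with most of the reads, stood at 0.03. Among thinly covered markers, TEK (0.79) and KDR (0.73) of endothelium were past 1.5-fold towards Luchuan, and LEP (-0.93) of adipocytes and PTPRC (-1.06) of blood cells towards Duroc. Other markers of these lists did not go with them. PECAM1 of endothelium, with 346 Luchuan and 559 Duroc reads, stood at -0.13 and CDH5 at 0.01. PLIN1 (0.34), PPARG (0.18) and ADIPOQ (0.07) of adipocytes lay above 0. Of blood cells, CD163 stood at 0.18, CSF1R at 0.14 and SPI1 at -0.03. The median gene of the 4 endothelial markers stood at 0.37. Of the 4 genes not expected in muscle, ALB, with 35 Luchuan and 22 Duroc reads, stood at 1.21. The part of these differences in the results below was not tested.

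The 10 genes did not move as one. CEBPD had more accessible chromatin in Luchuan, by 1.55-fold in summed reads, and ERRFI1 had more in Duroc, by 1.26-fold. KLF9 lay towards Luchuan at 1.17-fold and SGK1 towards Duroc at 1.17-fold. The receptor gene itself had a ratio of -0.02 (95% interval -0.08 to 0.03), which became -0.22 (-0.27 to -0.17) when counts were scaled by the clean reads that the study states.

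**Figure D1:**
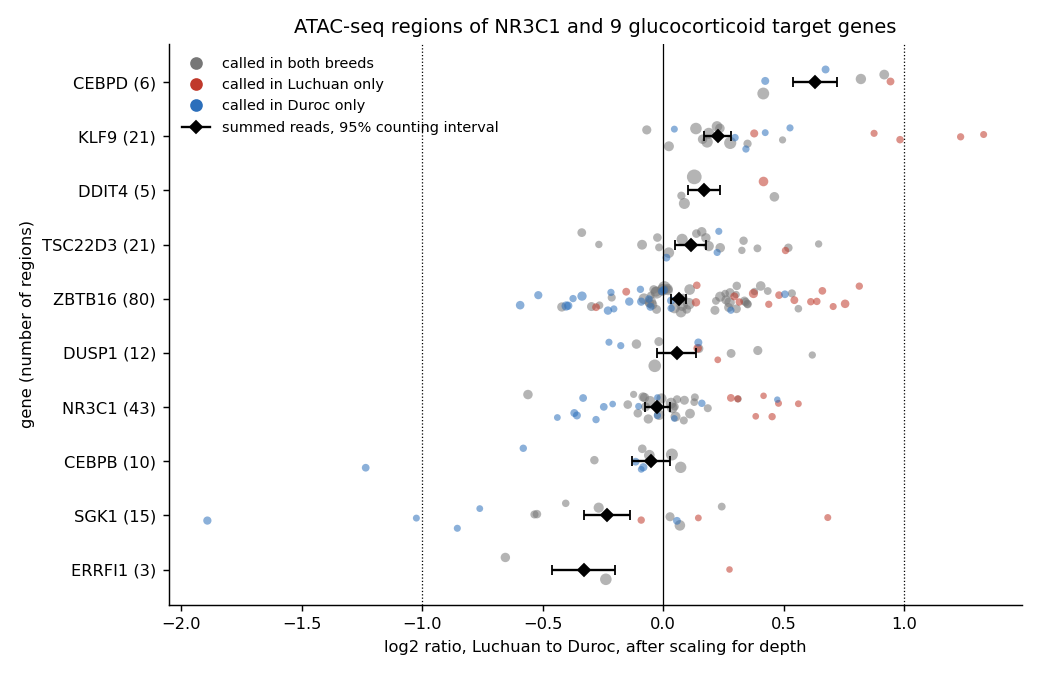
Log2 ratio of Luchuan to Duroc reads (horizontal axis, scaled for depth) for each of 216 regions, by gene (vertical axis, number of regions in parentheses). Points are regions, with area growing with reads and color showing the breed in which an interval was called; diamonds are the ratios of summed reads with 95% counting intervals, and dotted lines mark 2-fold. CEBPD, KLF9 and DDIT4 lie to the right and SGK1 and ERRFI1 to the left, with DDIT4 crossing 0 and KLF9 close to it (0.03) when counts are scaled by clean reads.

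By summed reads the order from Luchuan to Duroc was CEBPD, KLF9, DDIT4, TSC22D3, ZBTB16, DUSP1, NR3C1, CEBPB, SGK1 and ERRFI1. Of the 9 pairs of neighbours in this order, 7 had overlapping counting intervals. The exceptions were CEBPD above KLF9, by 0.40 on the log2 scale, and CEBPB above SGK1, by 0.18. CEBPD was the only one of the 10 past 1.5-fold. It did not pass in 4 of 16 alternatives, at 0.44 with clean-read scaling, with the gene body alone and without the regions in the neighbouring gene SPIDR, and at 0.50 within 50 kb. Some of the 16 left its ratio unchanged and so add nothing to this count, namely any overlap with the window, at least 20 reads and a window of 2 kb. ERRFI1 passed 1.5-fold towards Duroc in 2 of 16, at -0.65 with the gene body alone and -0.59 without its deepest region. Among 16986 protein-coding genes with a region, 4.40% passed 1.5-fold towards Luchuan and 2.73% towards Duroc, so 1 of 10 is near the background. Many of those genes had few reads, and each of the 10 members had over 1000. Among the 11724 genes with 1000 or more reads, a comparison chosen after values were seen, 0.444% passed towards Luchuan and 1.09% towards Duroc. There CEBPD lay above 99.7% of genes, KLF9 above 91.3%, SGK1 above 12.9% and ERRFI1 above 6.30%.

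**Figure D2:**
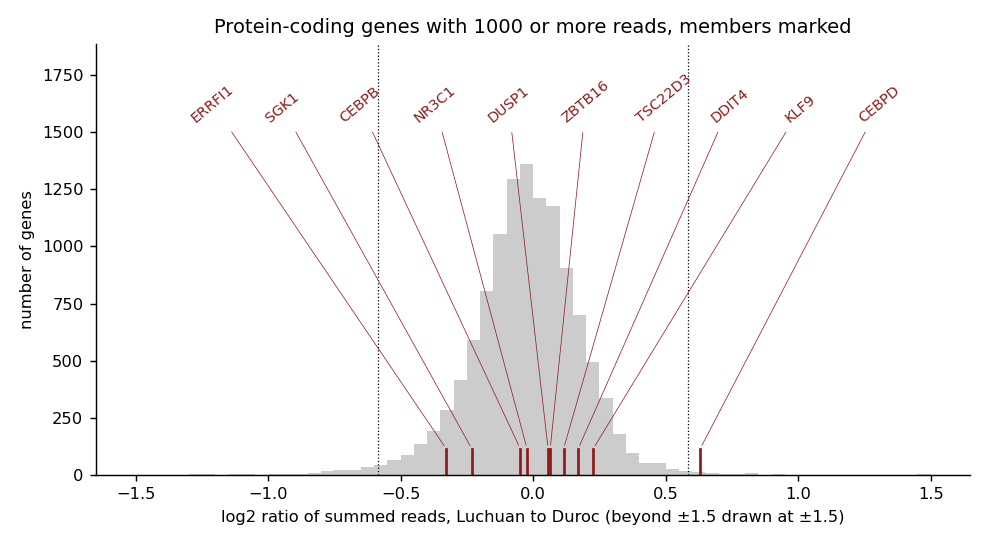
Number of protein-coding genes (vertical axis) by log2 ratio of summed reads (horizontal axis), for genes with 1000 or more reads of both breeds together; red marks are the 10 members and dotted lines mark 1.5-fold. CEBPD stands beyond the right dotted line, above 99.7% of these genes, and the other 9 lie between the lines.

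Region by region, 134 of 216 ratios were above 0 and 82 below, with a median of 0.08 (quartiles -0.08 and 0.31). Over all regions the median was -0.01 (quartiles -0.34 and 0.32), and 49.2% were above 0, against 62.0% of the members' regions. The median was 0.08 without the 80 regions of ZBTB16 and 0.13 over the 173 regions of the targets without NR3C1. These positive medians rest on the scaling: with clean-read scaling every ratio falls by 0.20 and the members' median becomes -0.11. Under that scaling CEBPD alone had a counting interval above 0, at 0.44 (0.34 to 0.53), and KLF9 stood at 0.03 with an interval that held 0 (-0.02 to 0.09). DDIT4 was at -0.03 (-0.09 to 0.04). The other 7 had intervals below 0, namely ERRFI1 at -0.52, SGK1 at -0.43, CEBPB at -0.24, NR3C1 at -0.22, DUSP1 at -0.14, ZBTB16 at -0.13 and TSC22D3 at -0.08.

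Few single regions were far from equal. A region was called when it passed 2-fold and its counting interval did not hold 0. Of the members' regions 2 were called towards Luchuan, both at KLF9, and 3 towards Duroc, at SGK1 (2) and CEBPB (1). Over all regions 6.38% were called towards Luchuan and 4.99% towards Duroc, and within 10 kb of a protein-coding gene 5% and 4.52%. The members' shares were below the background in both directions. Their regions were also deeper, and calls were rarer in deep regions: with 266 or more reads 0.597% of all regions were called towards Luchuan and 2.26% towards Duroc, and none of 97 member regions was. With the counting interval alone, 35 of 216 (16.2%) lay above 0 and 17 (7.87%) below, against 13.4% and 15.7% of all regions. Like the counts at 1.5-fold below, this lean depends on the scaling, since clean-read scaling lowers every ratio and interval by 0.20. Deeper regions also have narrower intervals, so these shares are not matched for depth. By fold alone, whether or not the counting interval held 0, a further 19 regions lay between 1.5-fold and 2-fold, 15 towards Luchuan and 4 towards Duroc. With the interval required, 16 regions passed 1.5-fold towards Luchuan and 6 towards Duroc, those past 2-fold included.

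All 5 called regions were intervals called as peaks in 1 breed only. Among all intervals found only in Luchuan 30.5% met the 2-fold call, and among those found only in Duroc 13.5% did towards Duroc. The members had 37 regions found only in Luchuan and 56 only in Duroc, and 123 (56.9%) found in both, against 49.1% of all regions. Of the 56 regions called only in Duroc, 20 (35.7%) had a ratio above 0, among them 2 at CEBPD, against 22.2% of all regions called only in Duroc.

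The ratio varied with reads. Regions with 47 or fewer reads of both breeds had a median ratio of 0.30 over the series, and 17.5% of them were called towards Luchuan; 6 member regions, 5 of NR3C1 and 1 of ERRFI1, were that thin. Among the deepest regions, with 266 to 5226 reads, 97 member regions had a median of 0.05 against -0.03 for all regions of that depth. In the ranks between, 36 member regions with 47 to 100 reads had a median of 0.23 and 78 with 100 to 266 reads one of 0.13, against -0.04 and -0.11 for all regions. Regions were ranked by reads in 4 equal groups, and 10 member regions lay above the 95th percentile of their own group and 2 below the 5th. The 10 were 3 of CEBPD, 3 of KLF9, 2 of ZBTB16, 1 of DDIT4 and 1 of TSC22D3, and the 2 were the called regions of CEBPB and, at 29629361 to 29629832, of SGK1.

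**Figure D3:**
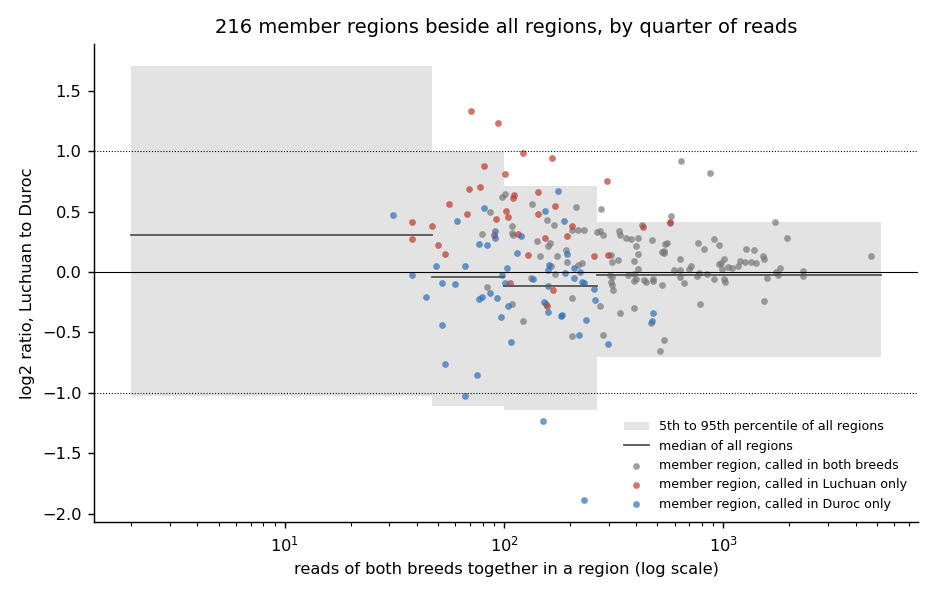
Log2 ratio of Luchuan to Duroc (vertical axis) against reads of both breeds together in a region (horizontal axis, log scale). Points are the 216 member regions, grey boxes the 5th to 95th percentile of all regions in each of 4 equal groups by reads and dark lines their medians; 10 points lie above their box and 2 below.

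The receptor gene NR3C1 (chr2:144822937-144956451) had 43 regions, 38 of them inside the gene, with 4967 Luchuan and 7449 Duroc reads. Its deepest region, at 144928708 to 144929398, had 449 Luchuan and 648 Duroc reads, a ratio of 0.03. The region nearest the upper gene end, at 144954934 to 144955541, had 294 and 419 reads, a ratio of 0.05. At the lower end, the interval from 144822662 to 144822811 had 28 reads in each breed and the highest ratio of the gene among regions with 50 or more reads, 0.56 (-0.25 to 1.37). The ratios were near 0 at these well covered sites and imprecise at the thin one.

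One region of NR3C1 stood apart on the Duroc side. At 144940572 to 144941158, inside the gene, it had 169 Luchuan and 369 Duroc reads, a ratio of -0.56 (-0.84 to -0.30). Of the 43 counting intervals it alone lay off 0. The standard deviation of the 43 ratios was 0.26, and counting error alone gives 0.28. Among the 10 genes NR3C1 was the only one whose regions varied by less than counting error. Of its regions 22 were above 0 and 21 below. In the next stretch out to 50 kb from the gene, 11 regions had a summed ratio of 0.14 (0.05 to 0.24).

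CEBPD and CEBPB encode C/EBP-delta and C/EBP-beta, leucine zipper transcription factors that take part in fat cell formation and in acute-phase and stress responses. The paralogs differed from each other in these data. All 6 regions of CEBPD (chr4:79872863-79874481) lay above 0, at 0.42 to 0.94, and 5 of them with counting intervals above 0. In all they had 1926 Luchuan and 1836 Duroc reads, more in Luchuan even before scaling, and a summed ratio of 0.63 (0.54 to 0.72).

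The region with the most reads at CEBPD, 79872305 to 79873431, spans the lower gene end and had 818 Luchuan and 905 Duroc reads, a ratio of 0.42 (0.28 to 0.55). Inside the gene, 79873618 to 79873812 had 92 and 85 reads, a ratio of 0.67. Beyond the upper end, 79874565 to 79874766 had 89 and 98 reads, a ratio of 0.42 with an interval that just holds 0 (-0.01 to 0.85). These 3 regions, which lie in no other protein-coding gene, gave 0.44 (0.31 to 0.56) together.

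The larger ratios of CEBPD came from 3 regions farther out, within the annotated bounds of the neighbouring gene SPIDR. At 79875180 to 79875620 there were 360 Luchuan and 281 Duroc reads, a ratio of 0.92 (0.69 to 1.15). At 79875650 to 79875803 there were 94 and 72 reads, a ratio of 0.94 (0.49 to 1.41), the highest of the gene. At 79876089 to 79876762 there were 473 and 395 reads, a ratio of 0.82 (0.63 to 1.02). Together they gave 0.87 (0.73 to 1.01), just short of 2-fold, and without them CEBPD does not pass 1.5-fold. Farther still, 18 regions between 10 and 50 kb had a summed ratio of 0.21 (0.07 to 0.35). Of them 4 were called towards Luchuan, as were 6.38% of all regions.

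CEBPB (chr17:51722633-51723673) had 10 regions with 2174 Luchuan and 3319 Duroc reads, a summed ratio of -0.05 (-0.13 to 0.03). The region spanning its lower end, 51721886 to 51722984, was its deepest and nearly level, with 740 Luchuan and 1065 Duroc reads and a ratio of 0.04. The region nearest its upper end, 51723344 to 51723499, had 61 and 98 reads, a ratio of -0.11. The highest ratio, 0.07, was at 51731679 to 51732630, with 585 and 821 reads. Of the 10 counting intervals, 9 held 0.

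The exception at CEBPB lay 7.74 kb outside its lower end. At 51714715 to 51715075, an interval called only in Duroc, there were 33 Luchuan and 117 Duroc reads, a ratio of -1.23 (-1.87 to -0.70). Without it the summed ratio was -0.02. The 5 CEBPB regions called in both breeds gave 0.00 (-0.08 to 0.08), while the 5 called only in Duroc gave -0.40 (-0.64 to -0.17). Intervals called only in Duroc were selected for Duroc reads, and over the series their median ratio was -0.36. The split by class therefore says little about CEBPB itself.

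**Figure D4:**
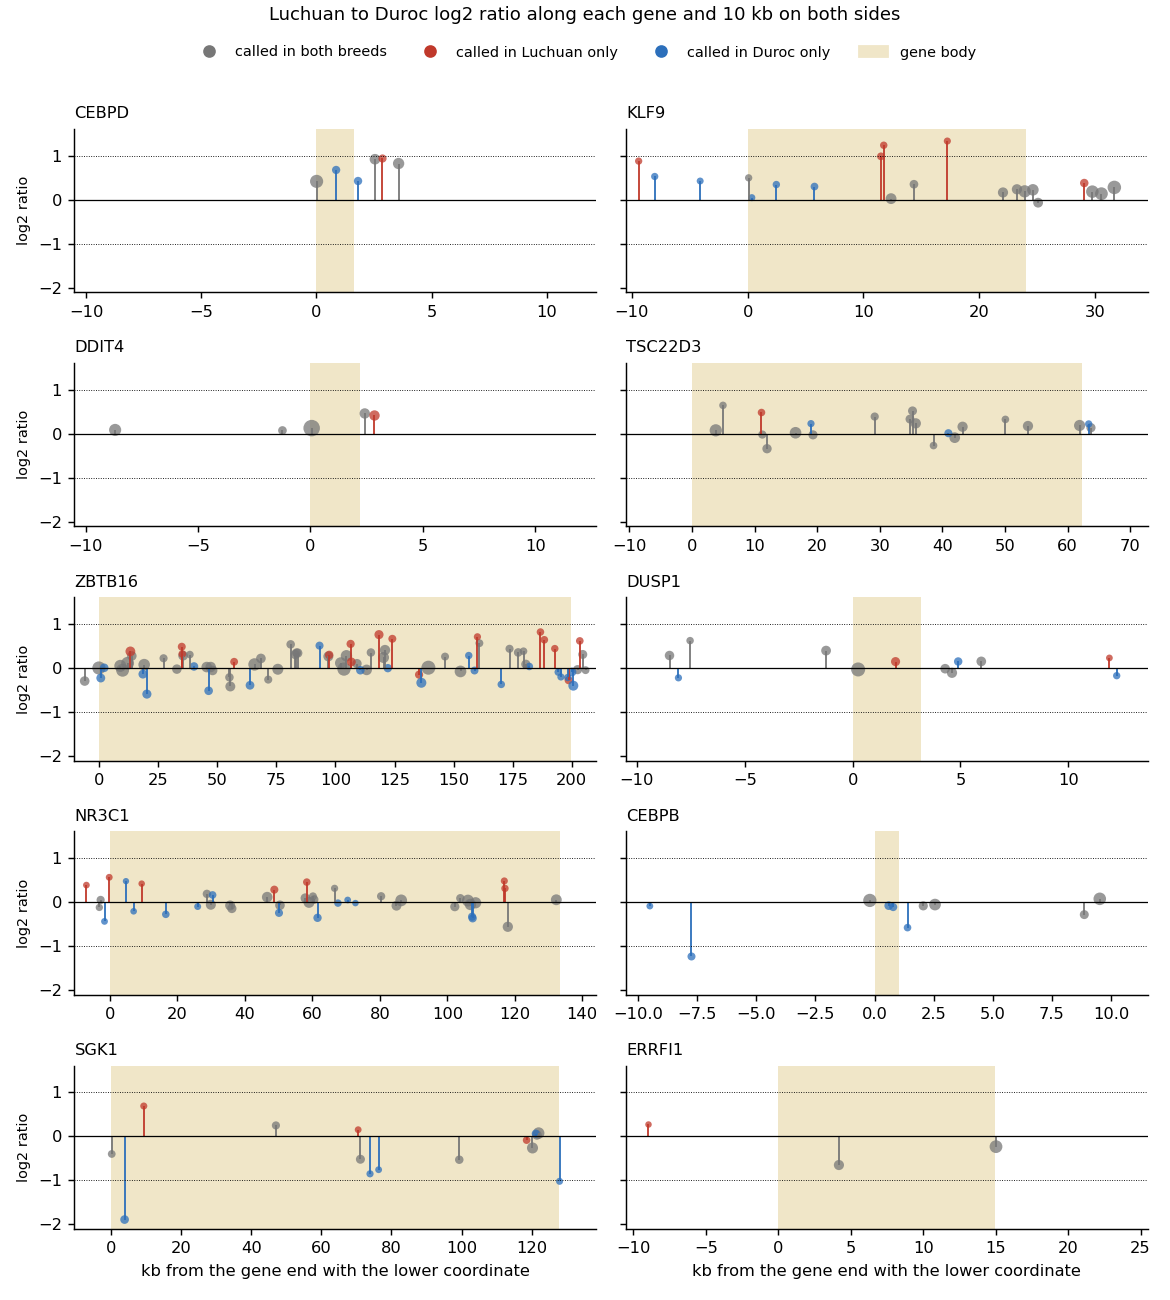
Log2 ratio of Luchuan to Duroc (vertical axis) by distance in kb from the gene end with the lower coordinate (horizontal axis), for the 10 genes ordered by summed ratio. Each stem is a region, dot area grows with reads, color shows the breed in which the interval was called, shading is the gene body and dotted lines mark 2-fold. All 6 stems of CEBPD and 20 of 21 of KLF9 point up, and the longest stem down is at SGK1, at -1.89; with clean-read scaling every stem would be 0.20 lower.

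KLF9 is a zinc finger transcription factor that responds quickly to glucocorticoids and thyroid hormone. KLF9 (chr1:223723613-223747661) had 21 regions with 4676 Luchuan and 5897 Duroc reads, a summed ratio of 0.23 (0.17 to 0.28). Of the 21, 20 were above 0 with the scaling used here, and 8 counting intervals were above 0 with none below. These counts depend on the scaling, and with clean-read scaling the summed ratio was 0.03 (-0.02 to 0.09). The deepest region, 223754748 to 223755839, had 881 Luchuan and 1072 Duroc reads, a ratio of 0.28 (0.15 to 0.41). The region over the upper gene end, 223747149 to 223747949, had 550 and 712 reads, a ratio of 0.19. At the lower end, 223723606 to 223723786 had 42 and 44 reads, a ratio of 0.50 with an interval that holds 0 (-0.15 to 1.14).

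Both regions called at KLF9 were short stretches inside the gene with few reads. They were called as peaks only in Luchuan, a class whose median ratio over the series was 0.77. At 223735290 to 223735447 there were 58 Luchuan and 36 Duroc reads, a ratio of 1.23 (0.62 to 1.89). At 223740789 to 223740938 there were 45 and 26 reads, a ratio of 1.33 (0.62 to 2.11). Next to the first of them, 223735009 to 223735245 had 70 and 52 reads and stood just short of 2-fold at 0.98, and past it at 1.02 with total-read scaling. A deeper region of the same cluster, 223735629 to 223736375, with 285 Luchuan and 414 Duroc reads, was near 0 at 0.02. The summed ratio was 0.21 without the called regions, and the lowest ratio, at 223748573 to 223748840 (171 and 265 reads), was -0.07. Outside the window, 10 regions out to 50 kb gave 0.34 (0.22 to 0.46). Of them 2 were called towards Luchuan, as were 6.38% of all regions.

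ZBTB16 encodes PLZF, a zinc finger transcription factor strongly induced by glucocorticoids in many cell types. The gene (chr9:41639536-41839254) was the longest of the 10 and carried 80 regions, with 13886 Luchuan and 19598 Duroc reads. Its summed ratio was 0.06 (0.03 to 0.10). The 49 regions above 0 and 31 below ranged from -0.59 to 0.81 and none was called. With 15 intervals above 0 and 6 below, it held both kinds. The deepest region, 41778254 to 41779476, was level with 931 and 1369 reads (0.01), and so was the region over the lower gene end, 41638781 to 41639967, with 701 and 1036 reads (-0.00), which also lies in the long non-coding RNA gene LOC106504875.

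At the extremes of ZBTB16, 41826232 to 41826382 had 55 Luchuan and 46 Duroc reads, a ratio of 0.81 (0.23 to 1.42), and 41659525 to 41659870 had 92 and 206 reads, a ratio of -0.59 (-0.97 to -0.24). The region nearest the upper end, 41839511 to 41839813, had 90 and 142 reads, a ratio of -0.09. The 72 regions inside the gene gave 0.08 (0.05 to 0.11) and the 8 outside -0.05 (-0.15 to 0.04). The ratios of its regions had a standard deviation of 0.31, where counting error gives 0.20.

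TSC22D3 encodes GILZ, which binds and restrains inflammatory transcription factors, and DUSP1 encodes a phosphatase that switches off MAP kinases. TSC22D3 lies on the X chromosome (chrX:88171325-88233583). Its 21 regions had 3344 Luchuan and 4557 Duroc reads, a summed ratio of 0.11 (0.05 to 0.18). Regions called in both breeds had a median of -0.13 on X, beyond the range of -0.07 to 0.07 on the autosomes. Set against X alone, TSC22D3 stood at 0.25.

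The deepest region of TSC22D3, 88174501 to 88175772, which is also nearest its lower end, had 523 Luchuan and 731 Duroc reads, a ratio of 0.08. The region over the upper end, 88232765 to 88233710, had 356 and 461 reads, a ratio of 0.19 (-0.02 to 0.39). The highest ratio, 0.65 (0.06 to 1.24), was at 88176168 to 88176405 with 52 and 49 reads, and the lowest, -0.34 (-0.68 to -0.01), at 88183127 to 88183510 with 117 and 219. One more region with an interval off 0, 88206389 to 88206719, had 136 and 140 reads, a ratio of 0.52 (0.17 to 0.87). The other 18 counting intervals held 0.

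DUSP1 (chr16:51457924-51461095) had 12 regions with 2158 Luchuan and 3063 Duroc reads, a summed ratio of 0.06 (-0.02 to 0.14). Its deepest region spans the lower end, 51457575 to 51458783, and was level at -0.03 with 918 Luchuan and 1388 Duroc reads. The region nearest the upper end, 51462087 to 51462340, had 157 and 235 reads, a ratio of -0.02. A region just beyond the lower end, 51456537 to 51456848, had 201 and 226 reads, a ratio of 0.39 (0.11 to 0.67). The highest ratio, 0.62 (0.02 to 1.22), at 51450276 to 51450500 with 50 and 48 reads, and the lowest, -0.22 (-0.97 to 0.45), at 51449763 to 51449933 with 28 and 49, lay close together in the long non-coding RNA gene LOC102166710. None was called.

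DDIT4 encodes REDD1, an inhibitor of mTORC1 signalling that glucocorticoids and fasting induce in muscle. It had the highest reads per kb of region of the 10 genes in both breeds, 1038 in Duroc and 1168 in Luchuan after scaling. Most of this was a single block, 75116627 to 75118899, of 2273 bases over the lower end and most of the gene (chr14:75117708-75119907), with 2013 Luchuan and 2716 Duroc reads. The block held 64.8% of the reads of DDIT4, and of the 140081 regions only 1 had more reads. Its ratio was 0.13 (0.05 to 0.21).

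**Figure D5:**
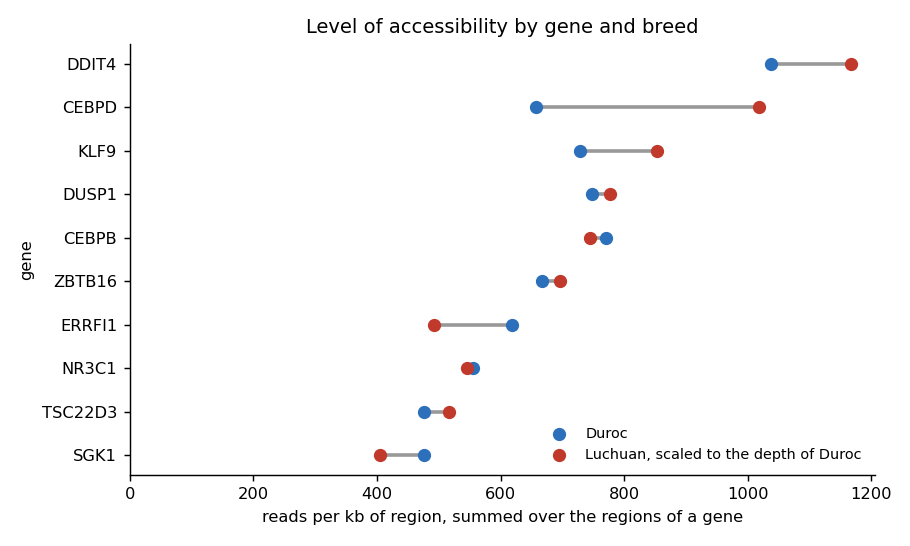
Reads per kb of region (horizontal axis), summed over the regions of each gene (vertical axis), in Duroc (blue) and in Luchuan after scaling to the depth of Duroc (red). DDIT4 had the highest level in both breeds, 1038 and 1168. SGK1 had the lowest, nearly level with TSC22D3 in Duroc. CEBPD moved from 657 in Duroc to 1018 in Luchuan.

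All 5 regions of DDIT4 were above 0, and their summed ratio was 0.17 (0.10 to 0.24), although with clean-read scaling it was -0.03. Past the upper end, 75119951 to 75120300 had 279 Luchuan and 299 Duroc reads, a ratio of 0.46 (0.22 to 0.70). Next to it, 75120368 to 75120738 had 272 and 301 reads, a ratio of 0.42 (0.17 to 0.66). The lowest ratio, 0.08, was at 75116374 to 75116552 with 94 and 132 reads. The remaining region, 75108610 to 75109426 (499 and 693 reads, 0.09), lies in ASCC1.

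SGK1 is a kinase of ion transport and cell survival, close in kind to AKT, and its induction by glucocorticoids is rapid in many tissues. SGK1 (chr1:29625786-29753619) had 15 regions with 1365 Luchuan and 2366 Duroc reads, a summed ratio of -0.23 (-0.33 to -0.14). Its level was the lowest of the 10 genes, 475 reads per kb in Duroc and 405 in Luchuan after scaling. In Duroc TSC22D3 was nearly level with it at 476, and in Luchuan TSC22D3 stood at 516 after scaling. Of the 15, 9 were below 0 and 6 above, and 6 counting intervals lay below 0 with none above.

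Its deepest region, 29747523 to 29748061, was level with 398 Luchuan and 560 Duroc reads (0.07, -0.12 to 0.26). The contrast was elsewhere. At 29629361 to 29629832, inside the gene, there were 35 Luchuan and 196 Duroc reads, a ratio of -1.89 (-2.49 to -1.40), or 3.71-fold more in Duroc. Just past the upper end, 29753654 to 29753856 had 16 and 50 reads, a ratio of -1.02 (-1.99 to -0.25). It was not called with total-read scaling (-0.99) or with a wider interval at a stricter confidence level (-2.65 to 0.25). The lower gene end, at 29625745 to 29626104, had 41 and 81 reads, a ratio of -0.40 (-1.0 to 0.14). The highest ratio, 0.68 (-0.04 to 1.41), was at 29634916 to 29635232 with 36 and 33 reads.

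Both of the called regions of SGK1 were called as peaks only in Duroc, and without them the summed ratio was -0.13 (-0.23 to -0.03). The 7 regions called in both breeds gave -0.13 (-0.24 to -0.03) and the 5 called only in Duroc -0.95 (-1.23 to -0.68). Regions of the second class tend to lie below 0, with a median of -0.36 over the series, although 22.2% of them lay above 0. The ratios at SGK1 were the most spread of the 10 genes, with a standard deviation of 0.63 where counting error gives 0.29. Between 10 and 50 kb from the gene 8 regions had few reads, 156 in Luchuan and 379 in Duroc, and a ratio of -0.71 (-1.0 to -0.45). Of them 2 were called towards Duroc, as were 4.99% of all regions.

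ERRFI1 encodes MIG6, an inhibitor of the EGF receptor family. ERRFI1 (chr6:68667651-68682629) had 3 regions with 727 Luchuan and 1348 Duroc reads, a summed ratio of -0.33 (-0.46 to -0.20). The deepest, 68681999 to 68683346, spans the upper end and held 73.4% of the reads, with 556 and 968 and a ratio of -0.24 (-0.39 to -0.09). Inside the gene, 68671493 to 68672173 had 154 and 359 reads, a ratio of -0.65 (-0.94 to -0.38), the lowest. The last, 68658572 to 68658721, 9 kb below the lower end, had 17 and 21 reads and a ratio of 0.27 (-0.76 to 1.25). None was called past 2-fold.

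Median ratios were close to each other by position. The 26 regions within 1 kb of a gene end had a median ratio of 0.09, the 150 farther inside 0.08 and the 40 farther outside 0.14. Regions near gene ends were deeper, with a median of 290 Duroc reads against 125 farther inside. Strand and exon positions were not used here, so starts of genes were not told apart from their ends.

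Around the receptor, 17 genes of its pathway had regions, from a list of 18 that covers chaperones, immunophilins, coregulators and enzymes of hormone activation with the mineralocorticoid receptor NR3C2. Their 337 regions had a median ratio of -0.01, and 5 genes were above 0 and 12 below. Called towards Luchuan were 39 regions (11.6%) and towards Duroc 9 (2.67%), against 6.38% and 4.99% of all regions. FKBP5, an immunophilin that slows receptor activation and is itself induced by glucocorticoids, held 33 of the 39. At 3353 Luchuan and 2319 Duroc reads its ratio was 1.09 (1.02 to 1.17), and it was the only gene of this list past 1.5-fold. HSD11B1, which regenerates cortisol from cortisone inside cells, stood at 0.41 (0.31 to 0.51) with 1 region called towards Luchuan. The others with called regions were the coregulator genes NCOA1 and NCOA2 (each 2 towards Luchuan and 2 towards Duroc), NCOR1 and EP300 (each 1 towards Duroc), the co-chaperone gene STIP1 (1 towards Duroc), and NR3C2 (1 towards Luchuan and 2 towards Duroc). HSD11B2, which inactivates cortisol, had no called region and a ratio of -0.23 (-0.40 to -0.06), the lowest of the list.

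A second list held 32 other genes commonly described as induced by glucocorticoids, of which 30 had regions. The median ratio over 385 regions was 0.10, with 18 genes above 0 and 12 below, before the fall of 0.20 that clean-read scaling brings. These regions were deeper, with a median of 116 Duroc reads against 61 over all regions. Among all regions with 100 to 266 reads of both breeds, 2.24% were called towards Luchuan and 6.98% towards Duroc. With 266 or more reads these shares were 0.597% and 2.26%. In this list 18 regions (4.68%) were called towards Luchuan and none towards Duroc, against 6.38% and 4.99% of all regions. The list mixes depths, and of all regions with 47 to 100 reads 4.89% were called towards Luchuan. None of these shares is matched to the list for depth. The list was also chosen with earlier results of these data known, and PDK4 and GLUL are among the candidate genes of the paper. The 18 were 7 of PDK4, which curbs glucose oxidation in fasting, 4 of the transcription factor FOXO1, 2 of the glutamine synthetase gene GLUL, 2 of PIK3R1, and 1 each of LPIN1, IRS2 and MSTN. PDK4 was the only gene past 1.5-fold, with 2143 Luchuan and 1814 Duroc reads and a ratio of 0.80 (0.71 to 0.89). FOXO1 stood at 0.31 (0.24 to 0.37) and GLUL at 0.32 (0.23 to 0.41). The lowest was CDKN1C at -0.40 (-0.60 to -0.20), and PER1, an early target, was level at -0.00 (-0.08 to 0.07).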

How the data were processed

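ATAC-seq of longissimus dorsi from 3 Luchuan and 3 Duroc boars was analysed. Per the study's methods and the submitters' notes, reads were filtered with Trimmomatic (0.36), aligned to Sscrofa11.1 with Bowtie2 and used for peak detection with MACS2. How replicates were pooled is not given in the sources used here. The authors deposited whole-number counts of reads, 1 per interval and breed, not scaled for depth. Their columns of a rescaled log2 fold change, an average log2 signal and a p-value were not used.

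Overlapping or adjoining intervals called in both breeds were merged to the longest, leaving 140081 regions. Starts are counted from 1. Ratios used a pseudocount of 1 and were centred on the median of common regions (shift -0.56). A region was called past 2-fold with a 95% counting interval off 0, a gene past 1.5-fold of summed reads likewise. PCR reads are not independent molecules, so the intervals may be too narrow even for counting error. With 1 count per breed they hold no spread between boars. Gene bounds came from the RefSeq table of Sscrofa11.1 (19550 protein-coding genes), which gave no strand or exons. HSP90AA1 and MT2A were not matched, and TAT had no region.

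The members and lists were chosen with earlier results of these data known. For each member the text names the deepest region, those nearest the gene ends, every called region, and the highest and lowest ratio among regions with 50 or more reads. Other regions it names were chosen after values were seen. Steps were tested on simulated data. The work was done in Python (3.11.15) with SciPy (1.17.1), pandas (2.3.3) and NumPy (2.4.6).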

Additional observations from a re-analysis of the deposited data

How the results depend on the processing

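The results were recomputed under 21 alternatives. The median ratio over member regions was 0.11 with total reads as the scale, -0.11 with the clean reads stated by the study and 0.11 as the median of the 10 gene medians. The count of regions called towards Duroc was 1 with the gene body alone, 6 within 50 kb, 0 with intervals called in both breeds only and 6 at 1.5-fold. Towards Luchuan it was 9 within 50 kb, 0 with intervals called in both breeds only and 16 at 1.5-fold. Total-read scaling gave 3 towards Luchuan and 2 towards Duroc, a stricter confidence level 2 and 2, and clean-read scaling 2 and 4. Of 160 gene ratios recomputed, 133 stayed within their counting error and 27 moved beyond it. Counting any overlap with the window, or asking for at least 20 reads, left all 10 gene ratios unchanged. Those alternatives add nothing to the 133 or to the signs kept. CEBPD, KLF9, SGK1 and ERRFI1 kept their sign in all 16 alternatives for gene ratios, although KLF9 was 0.03 with clean reads. CEBPD passed 1.5-fold in 12 of them, and ranged from 0.44 with clean reads to 0.81 without its deepest region. The 12 include any overlap, at least 20 reads and a window of 2 kb, which left its ratio unchanged and add nothing to that count. CEBPD was 0.44 without the regions that lie in SPIDR, an alternative chosen after seeing the data. ERRFI1 passed 1.5-fold in 2 of the 16. Clean-read scaling moved every ratio by -0.20 and put DDIT4, TSC22D3, ZBTB16 and DUSP1 below 0. NR3C1 was above 0 in 4 alternatives and -0.22 with clean reads, and CEBPB was -0.24 with them. The cause was not tested.

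No paired analysis was possible because the count columns carry no replicate number. Leaving out a replicate was not possible for the same reason. A difference between boars of a breed cannot be told apart from a difference between breeds, and depth limits regions with few reads.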
